A study of Homo sapiens with 18 samples.

Results

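A set of 50 genes of the mitotic spindle, the kinetochore and the spindle checkpoint was followed through RAD21 silencing and MycER activation in U2OS-MycER cells. The genes were given as a list of symbols, and all 50 were found among the 23399 genes of the expression table. The U2OS line comes from a human osteosarcoma, and its MycER derivative was made by transduction with a retrovirus encoding Myc fused to the estrogen receptor (MycER), a fusion that stays inactive until 4-hydroxytamoxifen (OHT) is added. Whether the line is a pool or a clone is not given in the sources used here, and the cells keep their own Myc. Cells were reverse-transfected with an siRNA pool that targets RAD21, the cohesin subunit cleaved at anaphase (siRAD21), or with an siRNA against Renilla luciferase, which the cells do not have (siCtrl). At the same time they received 400 nM OHT or ethanol, so that the groups named here without OHT are ethanol-treated. RNA was collected 24 or 48 h later, which gives 8 groups and 18 libraries. The siCtrl and siCtrl OHT groups had 3 libraries each at 48 h, and the other 6 groups had 2 each.

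Mitosis is driven by the kinase CDK1 with its B-type cyclins, and by the Aurora and Polo-like kinases. Spindle microtubules attach to the kinetochore, a protein assembly built on the centromere, and the spindle checkpoint holds back the anaphase promoting complex until every chromosome is attached. Separase then cleaves RAD21, which opens the cohesin ring that holds sister chromatids together, while shugoshin protects cohesin at the centromere until that point. Many of these genes are transcribed mainly in G2 and M phase, through promoters with CCAAT boxes and a cell cycle genes homology region (CHR). The CHR binds the MuvB complex with B-MYB or FOXM1 in cycling cells, and the DREAM repressor complex in resting cells. The RNA of such genes can therefore follow the share of cells that are in G2 and M phase, which was not measured in these libraries. In bulk RNA such as this, fewer cells in these phases and less RNA per cell cannot be told apart.

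Values are eRPKM, the exonic reads of a gene scaled to transcript length and library depth, so that levels of different genes are compared per length. The libraries held 9647502 to 12678599 reads, recovered from the values, and ribosomal RNA had been removed before sequencing. RAD21 itself stood at 93.3, 96.9 and 89.0 eRPKM in the siCtrl libraries at 48 h and at 11.2 and 11.3 eRPKM in the siRAD21 libraries. With OHT it stood at 89.1, 96.3 and 96.2 eRPKM in siCtrl cells and at 11.1 eRPKM in both siRAD21 libraries. The mesenchymal genes VIM (105 to 129 eRPKM) and SPARC (60.6 to 86.4 eRPKM) were high in all libraries, whereas COL1A2 and TWIST1 were at or near 0. The leukocyte gene PTPRC stayed at or below 0.322 eRPKM and the endothelial gene PECAM1 at or below 0.767 eRPKM, while of the epithelial genes the keratins KRT8 and KRT18 stood at 60.8 to 86.7 eRPKM, EPCAM at 2.56 to 12.9 eRPKM and CDH1 at 0.559 to 1.74 eRPKM. The 2 siRAD21 OHT libraries at 48 h differed by no more than the sampling noise of their reads (chi-square per gene 0.988 over 10023 genes, against 1.06 to 3.90 for the other pairs). Their mean is therefore counted as 1 sample and given without an SD, although the model holds both. The study states 2 biological replicates, and the labels do not say how the third libraries were made. The authors removed reads that share a position and strand, which caps the count of a gene and understates changes of high genes. The 50 genes reached from 10.1% (SGOL1) to 64.7% (CDC20) of that cap in their highest library.

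The promoters of these genes are shown because the programme is defined by its promoter elements. RefSeq promoter windows (GRCh38.p14), from 250 bases before to 50 bases after the annotated start, were matched to 42 of the 50 genes. The CHR, searched as TTTGAA on both strands, was present in 27 of the 42 windows (64.3%), against 15.4% of all 27305 promoter windows. The CCAAT box, searched as CCAAT on both strands, was present in 32 (76.2%), against 35.7% of all windows, and both elements together in 22 (52.4%), against 6.08%. A CHR that began between 70 bases before and 45 bases after the start was found in 25 windows (59.5%), against 5.47% of all windows. This range was not fixed in advance. It closely encloses the matches of the 50 genes near the start, which favours this contrast. The E-box CACGTG, which Myc with MAX can bind and which reads the same on both strands, was present in 6 windows (14.3%), against 7.43%. Windows were matched to 11185 of the 14993 genes tested, less than 80%, so that they cover the expressed genes in part only. Of these windows 9.92% held a CHR, 3.27% a CHR in that range around the start, 36.4% a CCAAT box, 4.09% both elements and 10.0% an E-box. No conclusion is drawn from these shares. Matches of different elements were allowed to overlap, and a match describes letters, not a bound site. By comparison, 1 of 21 matched windows of genes for origin licensing and firing (4.76%) held a CHR.

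The 150 bases before the start are printed for 6 genes, with CHR, CCAAT and E-box matches in capitals. BUB1B (chr15:40160919-40161068, plus strand), KIF11 (chr10:92592980-92593129, plus strand) and ESPL1 (chr12:53268149-53268298, plus strand) are examples that hold a CHR, and CENPE (chr4:103198344-103198493, minus strand) is an example with no CHR in its window. PRC1 (chr15:90994536-90994685, minus strand) and KIF23 (chr15:69414199-69414348, plus strand) hold a CHR and a CCAAT box, as do KIF11 and ESPL1. The 6 genes were picked as examples after their values were seen, and they carry no comparison of promoters with changes in RNA. Among genes called lower at 48 h of RAD21 silencing, as described further on, 12 of 20 matched windows held a CHR. Windows were matched to 22 of the 28 genes not called, less than 80%, and the 2 sets are not compared.
BUB1B: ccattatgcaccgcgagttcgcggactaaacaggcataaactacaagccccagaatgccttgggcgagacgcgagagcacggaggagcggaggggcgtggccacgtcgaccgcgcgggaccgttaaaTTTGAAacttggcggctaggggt
KIF11: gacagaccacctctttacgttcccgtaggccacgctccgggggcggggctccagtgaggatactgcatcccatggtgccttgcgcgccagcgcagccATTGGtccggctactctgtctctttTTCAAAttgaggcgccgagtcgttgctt
ESPL1: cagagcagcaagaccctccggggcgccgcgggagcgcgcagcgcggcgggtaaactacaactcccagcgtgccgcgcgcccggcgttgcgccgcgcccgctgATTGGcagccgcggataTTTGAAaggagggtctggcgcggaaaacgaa
CENPE: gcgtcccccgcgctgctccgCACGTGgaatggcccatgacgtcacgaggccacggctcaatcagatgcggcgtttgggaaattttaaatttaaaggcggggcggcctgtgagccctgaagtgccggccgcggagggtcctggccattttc
PRC1: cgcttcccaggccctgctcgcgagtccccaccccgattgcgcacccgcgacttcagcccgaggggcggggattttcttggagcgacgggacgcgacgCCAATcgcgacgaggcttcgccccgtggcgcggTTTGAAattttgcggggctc
KIF23: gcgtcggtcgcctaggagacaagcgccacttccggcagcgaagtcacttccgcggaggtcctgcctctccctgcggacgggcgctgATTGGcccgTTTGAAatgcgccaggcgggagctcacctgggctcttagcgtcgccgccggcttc
In BUB1B the CHR covered bases -23 to -18 relative to the start, in PRC1 -20 to -15, in ESPL1 -31 to -26 and in KIF23 -55 to -50. The CHR of KIF11 lay on the opposite strand at -28 to -23, downstream of a CCAAT box at -53 to -49. The single capitalised element of CENPE is an E-box at -130 to -125.

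In siCtrl cells at 48 h all 50 genes were expressed, from 13.97 ± 0.22 eRPKM for SGOL1 and 15.5 ± 0.676 eRPKM for CDC25C to 92.6 ± 3.16 eRPKM for TOP2A and 102 ± 1.24 eRPKM for CDC20 (mean ± SD, n = 3). The median over the 50 genes lay between 45.1 and 48.6 eRPKM in each of the 10 libraries of siCtrl and siCtrl OHT cells. It was 43.4 and 43.0 eRPKM in the siRAD21 libraries at 24 h and 30.6 and 32.0 eRPKM in those at 48 h. In the siRAD21 OHT libraries it was 42.6 and 45.2 eRPKM at 24 h and 41.5 eRPKM in both at 48 h. The siRAD21 libraries at 48 h were thus the lowest of all 18, and those of siRAD21 OHT cells at 48 h came next.

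To ask how RAD21 silencing affects these genes, siRAD21 cells were compared with siCtrl cells. A gene is called changed when its adjusted p is below 0.05 (limma on log2(eRPKM + 0.5) of all 18 libraries, Benjamini-Hochberg adjustment over 14993 genes) and the absolute value of its log2 fold change exceeds 0.5. At 48 h all 50 genes had a log2 fold change below 0, against 51.4% of all genes tested. Of the 50, 22 were called lower (44%) and 0 higher, against 11.2% of all genes tested called lower and 12.6% called higher. The median log2 fold change of the 50 genes was -0.48, against -0.01 for all genes tested. With duplicate removal undone by calculation 28 genes were called, with a median of -0.52, and with quantile normalization 19, with a median of -0.39. For 49 genes every siRAD21 library lay below every siCtrl library, against 36.7% of all genes tested, and the same 49 had an adjusted p below 0.05, against 30.5% of all genes tested that were lower at that level. The exception was PRC1, which bundles microtubules of the central spindle, with 47.9, 49.8 and 48.3 eRPKM in siCtrl and 43.7 and 48.2 eRPKM in siRAD21 cells (log2 fold change -0.08, adjusted p = 0.147).

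**Figure D1:**
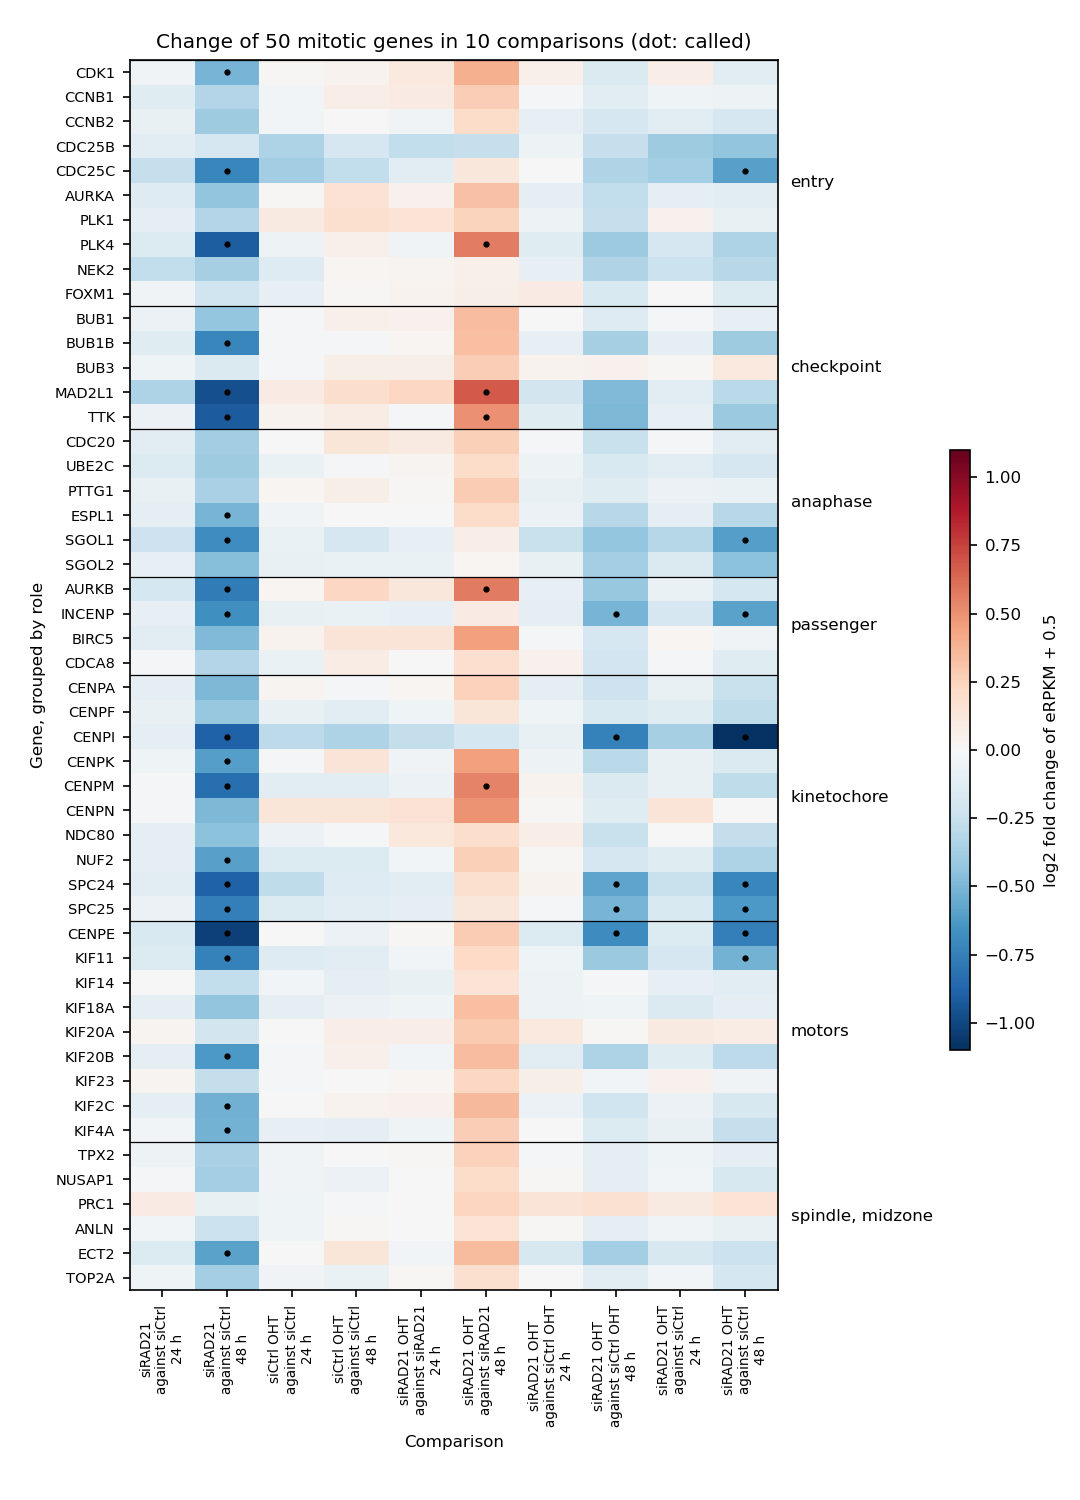
Change of the 50 genes (rows, grouped by role) in 10 comparisons (columns), as log2 fold change of eRPKM + 0.5, with blue for lower, red for higher and a dot for a called change. The column of siRAD21 against siCtrl at 48 h holds 22 dots and is blue throughout, the 24 h columns hold no dot, and OHT in siRAD21 cells at 48 h gives 5 dots in red.

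Each role held at least 1 called gene. The kinetochore group held the most, with the same share as the checkpoint genes. Of its 10 genes 6 were called lower (median -0.60), as were 5 of 9 motor proteins (-0.52), 3 of 5 checkpoint genes (-0.72) and 2 of 4 subunits of the chromosomal passenger complex (-0.58). The count was 3 of 10 for the kinases, cyclins and phosphatases of mitotic entry (-0.38), 2 of 6 for anaphase and cohesin release (-0.43) and 1 of 6 for spindle assembly, cytokinesis and chromosome structure (-0.36). Of all genes tested 11.2% were called lower, and the last count, 1 of 6, is near that share. Differences between these roles were not tested.

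Among the motors, CENPE, a kinesin that moves chromosomes towards the spindle equator (GRCh37, chr4:104026506-104119602, minus strand), fell furthest of all 50 genes. It stood at 25.9, 26.0 and 25.1 eRPKM in the siCtrl libraries and at 12.7 and 11.98 eRPKM in the siRAD21 libraries at 48 h. The groups lay far apart (log2 fold change -1.03, SE 0.0472, adjusted p = 7.99e-10), and CENPE was the only 1 of the 50 genes past a log2 fold change of 1. KIF11, the kinesin that pushes spindle poles apart (chr10:94333862-94415152, plus strand), fell from 44.3 ± 0.785 (SD, n = 3) to 26.3 ± 1.53 eRPKM (SD, n = 2; log2 fold change -0.74, SE 0.0409, adjusted p = 3.89e-09). KIF20B (-0.63), KIF2C (-0.53), a microtubule depolymerase, and KIF4A (-0.52), a chromosome-bound kinesin, were also called lower. KIF2C dropped below the threshold without siRAD21 replicate 1 (-0.50) and KIF4A without siCtrl replicate 2 (-0.48). KIF18A (-0.44), KIF14 (-0.27), KIF23 (-0.26) and KIF20A (-0.20) had smaller differences that did not pass the fold threshold, although each had an adjusted p below 0.05. KIF20A and KIF23 act late, in the central spindle and cytokinesis.

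At the checkpoint, MAD2L1, which encodes the MAD2 protein that sequesters CDC20 (chr4:120976778-120988013, minus strand), stood at 75.3, 78.6 and 70.6 eRPKM in siCtrl and at 35.5 and 40.5 eRPKM in siRAD21 cells. This was the second largest fall of the list (log2 fold change -0.97, SE 0.0559, adjusted p = 5.87e-09). TTK, the kinase MPS1 that starts checkpoint signalling (chr6:80713604-80752244, plus strand), was at 32.8, 36.4 and 31.7 eRPKM against 17.5 and 17.6 eRPKM (-0.92, SE 0.0624, adjusted p = 2.89e-08). No siRAD21 library came near the siCtrl range for either gene. BUB1B, which encodes the checkpoint protein BUBR1, fell from 42.5 ± 2.14 (n = 3) to 25.7 ± 0.596 eRPKM (n = 2; -0.72, adjusted p = 1.28e-08), and 240 of its exon bases are shared with PAK6. BUB1 had a log2 fold change of -0.43 and BUB3 of -0.16 (adjusted p = 0.00916), neither past the threshold.

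The kinetochore genes that fell belong to different layers of the structure. CENPI (chrX:100353177-100421115, plus strand), CENPK and CENPM are subunits of the inner, DNA-proximal network, and SPC24, SPC25 and NUF2 are subunits of the NDC80 complex that binds microtubules. CENPI stood at 20.6, 20.4 and 21.4 eRPKM in siCtrl and at 11.5 and 10.5 eRPKM in siRAD21 cells (log2 fold change -0.89, SE 0.0606, adjusted p = 2.76e-08). SPC24 (chr19:11242196-11266483, minus strand) was at 48.2, 49.3 and 53.0 eRPKM against 27.0 and 26.7 eRPKM (-0.89, SE 0.0809, adjusted p = 4.96e-07). CENPM (chr22:42334741-42343156, minus strand) was at 27.0, 26.2 and 29.2 eRPKM against 15.6 and 14.9 eRPKM (-0.83, SE 0.0565, adjusted p = 2.98e-08). In these 3 genes the siRAD21 libraries lay far below the lowest siCtrl library. SPC25 (-0.75), CENPK (-0.61) and NUF2 (-0.60) were called lower too. The remaining members were lower without passing the threshold, with -0.50 for CENPA, the histone variant that marks the centromere, -0.49 for CENPN, -0.45 for NDC80 and -0.42 for CENPF. CENPA and CENPN were the nearest to it among the kinetochore genes not called.

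In the chromosomal passenger complex, AURKB, its kinase (chr17:8108051-8113918, minus strand), stood at 45.9, 51.0 and 49.5 eRPKM in siCtrl and at 27.7 and 29.2 eRPKM in siRAD21 cells (log2 fold change -0.77, SE 0.0755, adjusted p = 1.07e-06). INCENP, the scaffold of the complex (chr11:61891470-61920641, plus strand), was at 38.2, 34.1 and 36.6 eRPKM against 23.1 and 21.9 eRPKM (-0.68, SE 0.0631, adjusted p = 6.28e-07). The libraries of the 2 groups did not overlap for either gene. BIRC5, which encodes survivin, had a log2 fold change of -0.49 and CDCA8, which encodes borealin, of -0.32, and neither passed the threshold.

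PLK4, the kinase of centriole duplication (chr4:128802048-128820379, plus strand), was counted with the genes of mitotic entry. It had the largest fall of that group, from 26.7, 30.5 and 27.5 eRPKM in siCtrl to 15.1 and 14.6 eRPKM in siRAD21 cells (log2 fold change -0.90, SE 0.0655, adjusted p = 5.27e-08). CDC25C, a phosphatase that activates CDK1, fell from 15.5 ± 0.676 (n = 3) to 9.20 ± 0.0582 eRPKM (n = 2; -0.72, adjusted p = 7.78e-07), and 293 of its exon bases are shared with FAM53C. CDK1 (chr10:62538089-62554610, plus strand) was at 45.6, 48.3 and 49.2 eRPKM against 31.7 and 34.9 eRPKM (-0.51, SE 0.0661, adjusted p = 1.41e-05). CDK1 lost its call without siCtrl replicate 3 (-0.49) and without siRAD21 replicate 1 (-0.45).

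The partner of CDK1 and a transcription factor of the programme did not pass the threshold. CCNB1, which encodes cyclin B1 (chr5:68462962-68474072, plus strand), stood at 72.7, 72.2 and 69.1 eRPKM in siCtrl and at 55.2 and 58.7 eRPKM in siRAD21 cells (-0.32, adjusted p = 0.000314). FOXM1 (chr12:2966846-2986340, minus strand) was at 66.0, 59.2 and 61.8 eRPKM against 52.3 and 54.3 eRPKM (-0.22, adjusted p = 0.00161), and 782 of its exon bases are shared with ITFG2. The siRAD21 libraries were the lower ones for both genes, but by less than the fold threshold. CDC25B (-0.18), AURKA (-0.44), PLK1 (-0.32), NEK2 (-0.36) and CCNB2 (-0.39) also did not pass it.

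The genes that act on cohesin itself had falls of unequal size. SGOL1, which encodes the shugoshin that protects cohesin at mitotic centromeres, had the lowest level of the list, at 13.7, 14.2 and 14.03 eRPKM in siCtrl and 8.86 and 8.18 eRPKM in siRAD21 cells (-0.68, SE 0.0609, adjusted p = 3.98e-07). SGOL2, its paralog, was at 27.7, 27.7 and 27.4 eRPKM against 19.4 and 20.2 eRPKM (-0.47, SE 0.0378, adjusted p = 1.57e-07), just short of the fold threshold. ESPL1, which encodes separase (chr12:53662083-53687422, plus strand), was at 24.1, 20.1 and 23.2 eRPKM against 15.4 and 15.8 eRPKM (-0.51, SE 0.0785, adjusted p = 7.32e-05). PTTG1, which encodes securin, the inhibitor of separase (chr5:159848862-159855746, plus strand), was at 76.5, 82.4 and 78.4 eRPKM against 58.4 and 65.4 eRPKM (-0.35, adjusted p = 0.000608). All 4 genes were lower in both siRAD21 libraries than in any siCtrl library, and SGOL1 and ESPL1 were called. The call of ESPL1 was lost without siCtrl replicate 1 (-0.46), siCtrl replicate 3 (-0.49) or siRAD21 replicate 1 (-0.49). CDC20 (-0.38), the activator of the anaphase promoting complex, and UBE2C (-0.39), its ubiquitin-conjugating enzyme, did not pass the threshold, and CDC20 was the gene nearest to the duplicate cap.

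Of the genes for spindle assembly and cytokinesis, ECT2, the exchange factor that activates RhoA for cytokinesis (chr3:172468472-172539264, plus strand), was the 1 called. It stood at 37.1, 40.5 and 35.9 eRPKM in siCtrl and at 25.2 and 24.9 eRPKM in siRAD21 cells (-0.59, SE 0.0566, adjusted p = 8.97e-07). NUSAP1 (-0.38), TOP2A (-0.37), TPX2 (-0.35) and ANLN (-0.24) did not pass the threshold. PRC1 shares 1892 of its 5523 exon bases with the antisense gene PRC1-AS1, and the library kit does not mark strand, so reads of the 2 genes cannot be told apart there. The same holds for 547 exon bases of NUSAP1, 240 of CENPN, 206 of KIF20A, 138 of CENPA, 88 of SPC24, 77 of KIF4A and 58 of PLK1, which overlap other genes.

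**Figure D2:**
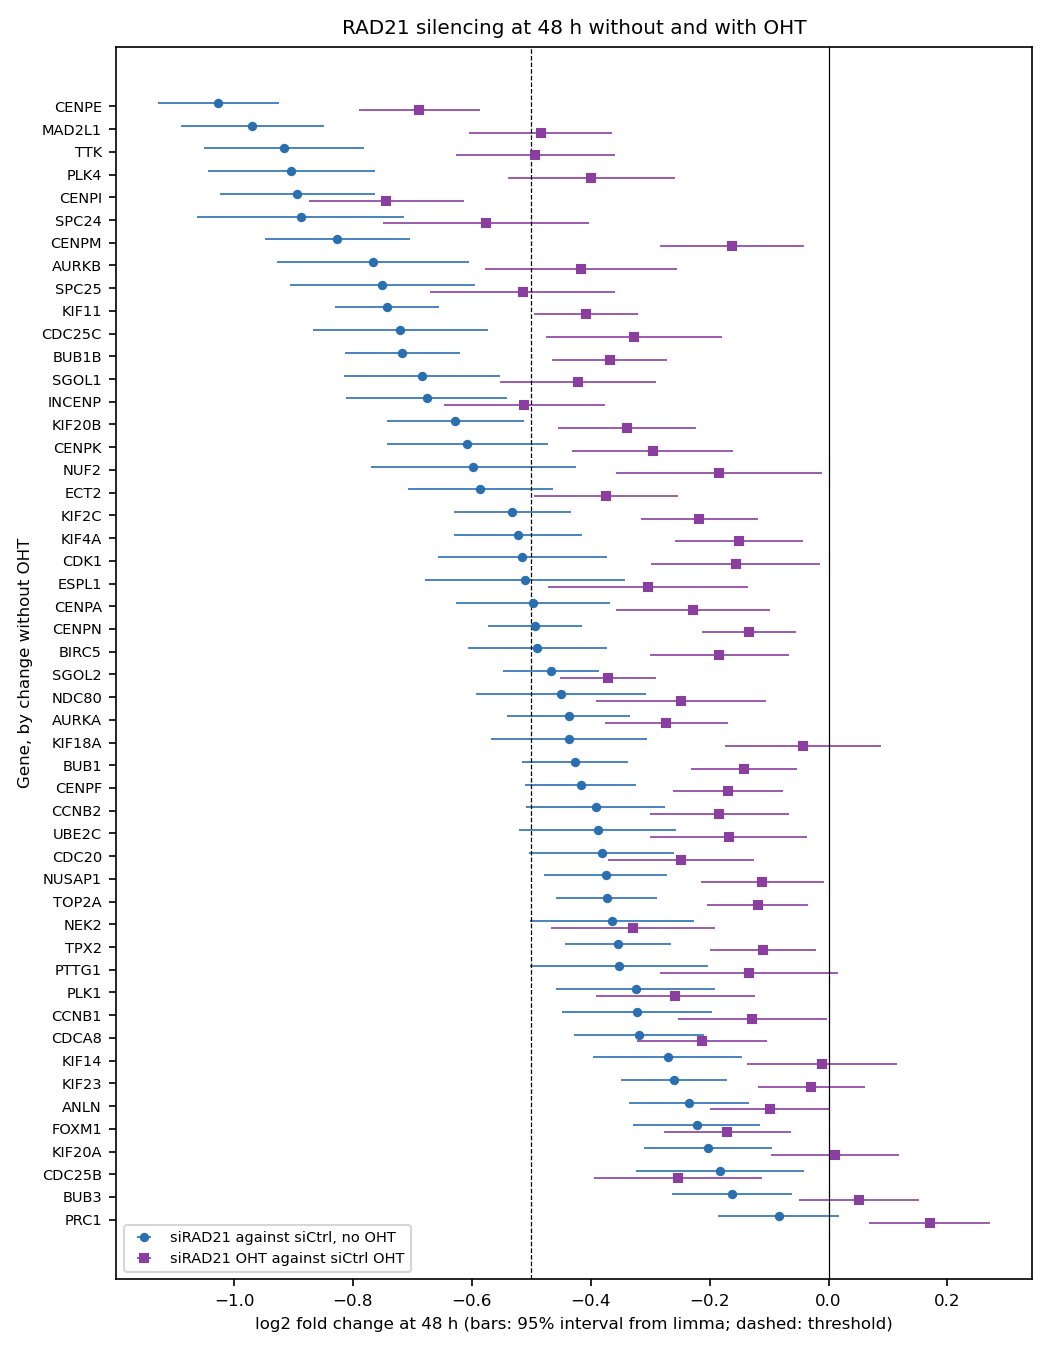
Log2 fold change of each gene (rows) at 48 h with its 95% interval from limma, for siRAD21 against siCtrl (blue circles) and siRAD21 OHT against siCtrl OHT (purple squares), ordered by the first. The blue values run from -1.03 for CENPE to -0.08 for PRC1, and the purple values from -0.74 for CENPI to 0.17 for PRC1.

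At 24 h the same comparison showed little. No gene of the 50 was called in either direction (limma), against 2.60% of all genes tested called lower and 5.83% called higher. There were 6 genes with an adjusted p below 0.05, all of them lower, against 11.8% of all genes tested that were lower at that level. This share of the list was near that of all genes. MAD2L1 led, with 57.2 and 56.1 eRPKM in siCtrl and 45.2 and 43.8 eRPKM in siRAD21 cells (log2 fold change -0.34, SE 0.0613, adjusted p = 0.000888). NEK2 (-0.27), CDC25C (-0.25), SGOL1 (-0.23), CENPE (-0.17) and KIF11 (-0.15) followed. The median log2 fold change was -0.10, and 47 genes were below 0, against 49.6% of all genes tested. This median was -0.06 without siCtrl 24 h replicate 1 and -0.04 with quantile normalization.

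Tested directly, the effect of siRAD21 at 48 h minus that at 24 h was called for 14 of the 50 genes, all lower at 48 h, against 6.86% of all genes tested called lower. CENPE differed by -0.86 (SE 0.07, adjusted p = 2.82e-06), TTK by -0.85 (SE 0.0926, adjusted p = 3.23e-05) and CENPM by -0.81 (SE 0.0838, adjusted p = 2.11e-05). TTK was at 35.2 and 36.1 eRPKM in siCtrl against 33.7 and 34.3 eRPKM in siRAD21 cells at 24 h, and CENPM at 34.0 and 32.6 against 34.7 and 31.1 eRPKM. The CENPM libraries thus overlapped at 24 h and were far apart at 48 h. The difference was below 0 for all 50 genes, against 51.3% of all genes tested, with a median of -0.38, and 0 genes were called higher, against 3.85%. MAD2L1, with -0.63 (SE 0.083, adjusted p = 0.000137), was also called there.

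With time alone, few of these genes changed in siCtrl cells, and their share was no higher than that of all genes. Between 24 and 48 h, 3 genes were called lower, against 6.91% of all genes tested, and 0 higher, against 5.53%. ESPL1 went from 34.9 and 35.2 eRPKM at 24 h to 24.1, 20.1 and 23.2 eRPKM at 48 h (-0.63, SE 0.0785, adjusted p = 2.84e-05). CENPE went from 36.8 and 37.9 to 25.9, 26.0 and 25.1 eRPKM (-0.53, SE 0.0472, adjusted p = 1.77e-06). CDC25C went from 22.7 and 22.4 to 15.9, 15.8 and 14.7 eRPKM (-0.53, SE 0.0687, adjusted p = 4.15e-05), a call that was lost without siCtrl 48 h replicate 3 (-0.49). All 3 genes were lower in every 48 h library. MAD2L1 (0.40, adjusted p = 8.02e-05) and CDK1 (0.36, adjusted p = 0.000671) were higher at 48 h without passing the fold threshold, and the median over the 50 genes was -0.04, as was that of all genes tested. With each library centred on its median 1 gene was called and the median of the 50 genes was 0.05, and with quantile normalization 1 gene was called.

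MycER activation in siCtrl cells changed no gene of the list past the thresholds. At 48 h 0 of the 50 genes were called (limma), against 10.1% of all genes tested called lower and 7.78% called higher, and the median log2 fold change was 0.00. There were 15 genes with an adjusted p below 0.05, of which 6 were lower and 9 higher, against 27.2% and 26.1% of all genes tested. CENPI had the lowest value, with 14.7, 17.3 and 17.0 eRPKM in siCtrl OHT against 20.6, 20.4 and 21.4 eRPKM in siCtrl cells (-0.34, SE 0.0542, adjusted p = 0.000112). AURKB had the highest, with 54.6, 58.4 and 58.0 against 45.9, 51.0 and 49.5 eRPKM (0.22, SE 0.0675, adjusted p = 0.0123). The libraries of both genes did not overlap, but the differences stayed below the fold threshold. Neither CDK1, at 44.4, 48.5 and 54.3 eRPKM with OHT, nor FOXM1, at 64.9, 62.6 and 61.5 eRPKM, separated from siCtrl cells. At 24 h 0 genes were called, against 5.10% and 3.68% of all genes tested called lower and higher. With an adjusted p below 0.05 there were 5 lower genes and 1 higher, against 14% and 12.5% of all genes tested. CDC25C had -0.38, CDC25B -0.34 and CENPI -0.29. The change of the OHT effect from 24 to 48 h called 0 of the 50 genes, against 1.06% and 0.714% of all genes tested called lower and higher.

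In siRAD21 cells at 48 h most of the list was higher with OHT, by small amounts. Of the 50 genes 5 were called higher and 0 lower, against 12.4% and 16.2% of all genes tested, so that the share called higher (10.0% of the list) was close to that of all genes. The median log2 fold change was 0.25, against -0.02 for all genes tested. For 45 genes both siRAD21 OHT libraries lay above both siRAD21 libraries, against 40.7% of all genes tested, and 40 genes had an adjusted p below 0.05. Of these 38 were higher, against 30.5% of all genes tested, and 2 lower, against 29.9%. With the near-identical libraries of siRAD21 OHT cells averaged into 1 sample the count remained 5. With quantile normalization it was 2, and the median was 0.09.

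The 5 genes were MAD2L1, AURKB, PLK4, CENPM and TTK. MAD2L1 went from 35.5 and 40.5 eRPKM in siRAD21 to 61.4 and 60.4 eRPKM in siRAD21 OHT cells (0.68, SE 0.0613, adjusted p = 5.40e-07). AURKB went from 27.7 and 29.2 to 41.6 and 43.6 eRPKM (0.57, SE 0.0827, adjusted p = 4.05e-05), and PLK4 from 15.1 and 14.6 to 22.1 and 22.2 eRPKM (0.56, SE 0.0717, adjusted p = 1.36e-05). All libraries with OHT were above those without. CENPM went from 15.6 and 14.9 to 23.2 and 21.8 eRPKM (0.55, SE 0.0619, adjusted p = 4.42e-06). TTK went from 17.5 and 17.6 to 24.7 and 25.5 eRPKM (0.50, SE 0.0684, adjusted p = 2.37e-05), at the edge of the threshold. The call of TTK was lost without siRAD21 replicate 1 (0.50) and without siRAD21 OHT replicate 2 (0.48), and with a pseudocount of 1 (0.49). With quantile normalization MAD2L1 (0.50), TTK (0.47) and AURKB (0.42) dropped below it.

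Other genes had positive differences below the threshold, among them CENPN (0.49, adjusted p = 1.82e-07), CENPK (0.45), BIRC5 (0.45) and CDK1 (0.39, adjusted p = 0.00033). CDK1 stood at 44.3 and 43.4 eRPKM in siRAD21 OHT cells and CCNB1 at 68.8 and 68.7 eRPKM (0.27, adjusted p = 0.00237). PTTG1 had a value of 0.28, ESPL1 of 0.20, SGOL1 of 0.08 and SGOL2 of 0.02, and of these PTTG1 alone had an adjusted p below 0.05 (0.00588). FOXM1 stood at 56.7 and 55.1 eRPKM (0.07, adjusted p = 0.294). CDC25B (-0.25, adjusted p = 0.00798) and CENPI (-0.19, adjusted p = 0.0219) were the 2 genes on the negative side. At 24 h 0 genes were called, against 7.62% and 4.29% of all genes tested called lower and higher. With an adjusted p below 0.05 there were 2 lower and 2 higher genes, against 18.2% and 16.9% of all genes tested.

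**Figure D3:**
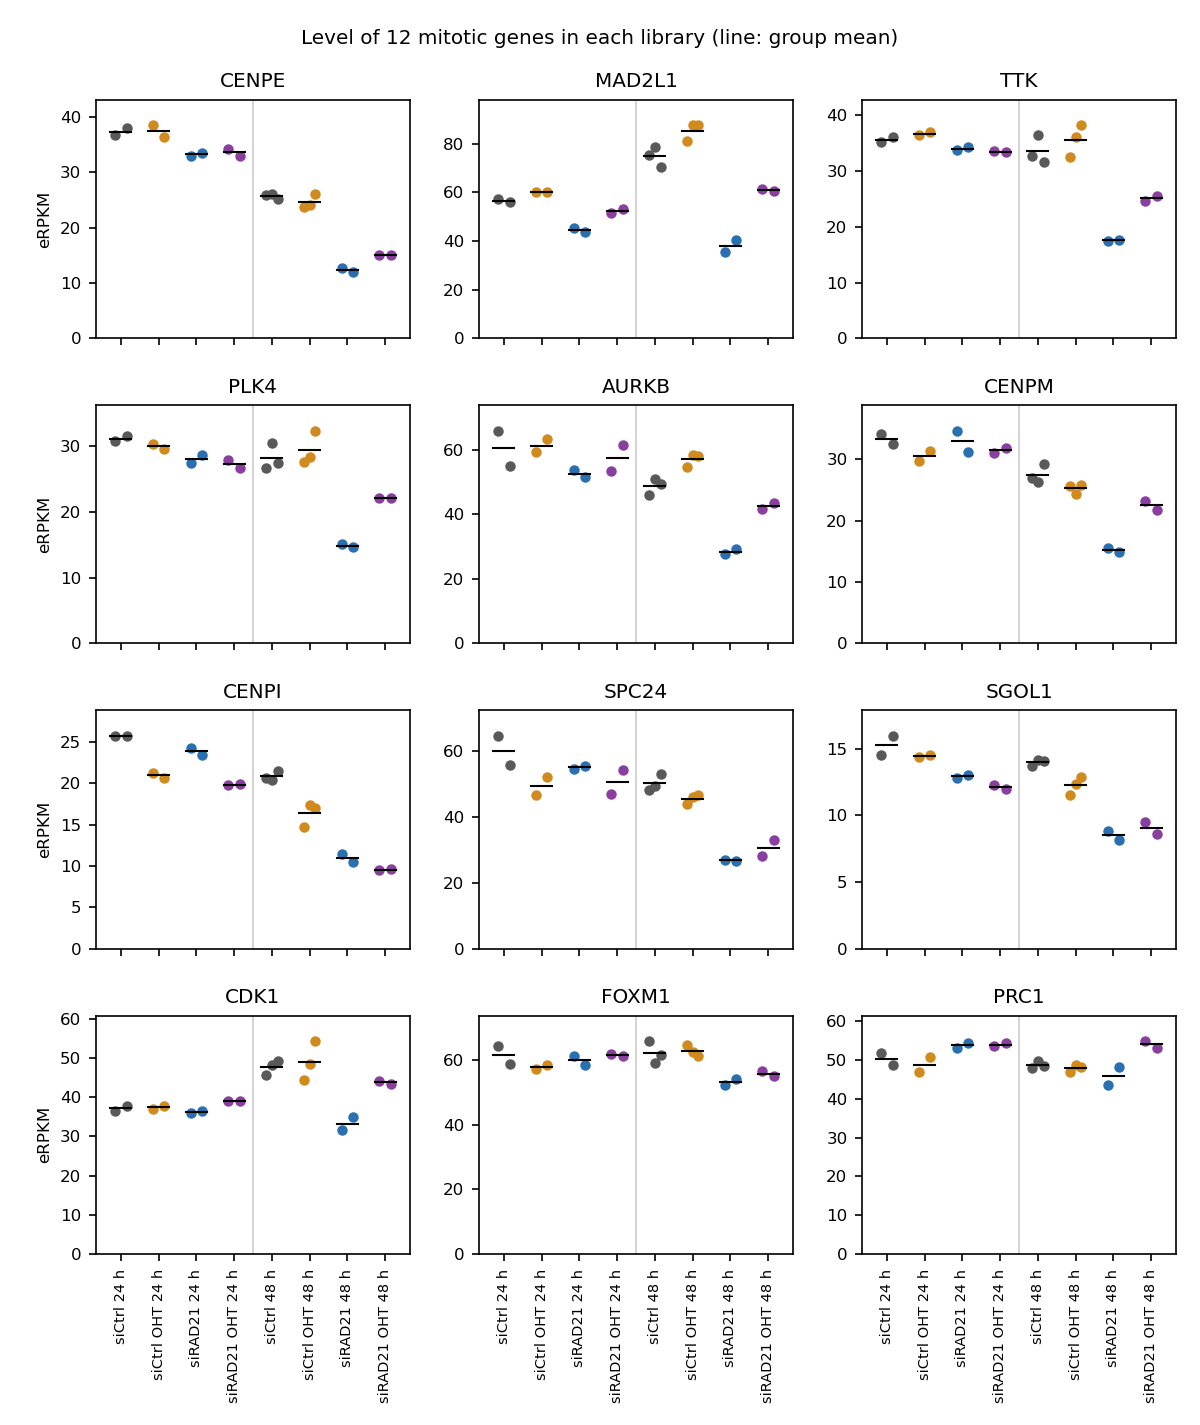
Level of 12 of the genes (panels) in eRPKM, with 1 point per library and a line for the mean of the points in each of the 8 groups, 24 h on the left and 48 h on the right of each panel. The siRAD21 libraries at 48 h (blue) are the lowest for MAD2L1, TTK, PLK4, AURKB and CENPM, whereas CENPI is lowest in siRAD21 OHT cells (purple), and FOXM1 and PRC1 differ little.

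With MycER active in both arms, RAD21 silencing at 48 h still lowered part of the list. In siRAD21 OHT compared with siCtrl OHT cells 5 genes were called lower and 0 higher, against 7.74% and 8.47% of all genes tested. This share (10.0% of the list) is near that of all genes called lower. The median was -0.22, 47 genes were below 0, against 50.3% of all genes tested, and for 43 genes both siRAD21 OHT libraries lay below all siCtrl OHT libraries, against 32.3% of all genes tested. All 5 were also among the 22 called lower without OHT, in libraries that the 2 comparisons do not share. CENPI stood at 14.7, 17.3 and 17.0 eRPKM in siCtrl OHT and at 9.47 and 9.62 eRPKM in siRAD21 OHT cells (-0.74, SE 0.0606, adjusted p = 3.10e-07). CENPE was at 23.7, 24.1 and 26.1 eRPKM against 15.1 and 15.03 eRPKM (-0.69, SE 0.0472, adjusted p = 6.33e-08). SPC24 was at 43.9, 46.0 and 46.7 eRPKM against 28.03 and 32.9 eRPKM (-0.58, SE 0.0809, adjusted p = 5.13e-05). The siRAD21 OHT libraries were clearly the lower ones in all 3 genes. SPC25 and INCENP (both -0.51) completed the 5.

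Calls near the threshold depended on single libraries. INCENP lost its call without siCtrl OHT replicate 1 (-0.47), siCtrl OHT replicate 2 (-0.49) or siRAD21 OHT replicate 2 (-0.47). SPC25 lost it without siCtrl OHT replicate 3 (-0.46) or siRAD21 OHT replicate 2 (-0.47), and SPC24 without siRAD21 OHT replicate 1 (-0.46). With quantile normalization 3 genes were called. TTK (-0.49), MAD2L1 (-0.48) and AURKB (-0.42) did not reach the threshold although their adjusted p was below 0.05. PRC1 was the 1 gene with a positive value and an adjusted p below 0.05, at 46.8, 48.7 and 48.3 eRPKM in siCtrl OHT and 54.9 and 53.1 eRPKM in siRAD21 OHT cells (0.17, adjusted p = 0.00932). At 24 h 0 genes were called, against 2.73% and 3.74% of all genes tested called lower and higher. With an adjusted p below 0.05 there were 2 genes, both lower, against 9.44% of all genes tested.

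The comparison of siRAD21 OHT with siCtrl cells at 48 h shows the level reached with OHT against cells with neither treatment. It shares its siCtrl libraries with the comparison of siRAD21 with siCtrl. Here 8 genes were called lower and 0 higher, against 14.9% and 13.1% of all genes tested, with a median of -0.19. CENPI had the largest difference (-1.09, SE 0.0606, adjusted p = 2.69e-09), followed by CENPE (-0.75, SE 0.0472, adjusted p = 8.87e-09) and SPC24 (-0.71, SE 0.0809, adjusted p = 3.22e-06). Their libraries, given above, did not overlap between the groups. SPC25 (-0.63), SGOL1 (-0.61), CDC25C (-0.59), INCENP (-0.59) and KIF11 (-0.52) were the other 5, and KIF11 lost its call without siRAD21 OHT replicate 2 (-0.49). SGOL1 stood at 9.47 and 8.56 eRPKM in siRAD21 OHT cells, so that it lay close to its level in siRAD21 cells. MAD2L1 (-0.29), PLK4 (-0.34), CENPM (-0.28) and AURKB (-0.19) did not pass the threshold, and CENPN (0.00), CCNB1 (-0.05) and BIRC5 (-0.04) had intervals that included 0. At 24 h 0 genes were called, against 6.51% and 6.62% of all genes tested called lower and higher. With an adjusted p below 0.05 there were 11 lower genes and 1 higher, against 17% and 17.4% of all genes tested, led by CENPI (-0.37, adjusted p = 0.00062).

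Whether OHT acted differently in siRAD21 and siCtrl cells was tested by the interaction of siRNA and OHT. At 48 h 2 genes were called, both with a more positive OHT effect in siRAD21 cells, against 3.33% of all genes tested called higher and 3.97% called lower. This count was near the share of all genes called higher. CENPM had an interaction of 0.66 (SE 0.0799, adjusted p = 0.000119), since OHT went with 0.55 in siRAD21 and -0.12 in siCtrl cells. PLK4 had 0.50 (SE 0.0926, adjusted p = 0.00225). MAD2L1 (0.49, adjusted p = 0.00102), TTK (0.42, adjusted p = 0.0051) and AURKB (0.35, adjusted p = 0.0373) were positive below the fold threshold. The interaction was below 0 for CDC25B alone (-0.07), against 47.3% of all genes tested, and its median was 0.25. An adjusted p below 0.05 was found for 28 genes, all above 0, against 10.0% of all genes tested. For CENPI (0.15, adjusted p = 0.253), INCENP (0.16, adjusted p = 0.228), SGOL2 (0.10, adjusted p = 0.239) and FOXM1 (0.05, adjusted p = 0.655) no interaction was detected. PLK4 dropped below the threshold without siCtrl replicate 2 (0.45), siCtrl OHT replicate 1 (0.46), siCtrl OHT replicate 2 (0.48) or siRAD21 replicate 2 (0.48). At 24 h no gene of the 50 was called, as was no gene of the whole table (limma).

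Other genes of the same structures were counted by 7 further lists. At 48 h of RAD21 silencing 15 of 22 other kinetochore genes were called lower (median -0.56), as were 6 of 8 condensin genes (-0.64), 5 of 10 genes of MuvB, B-MYB and DREAM (-0.48) and 4 of 12 genes of mitotic entry control (-0.45). The anaphase promoting complex had 1 of 17 (-0.24) and other spindle and cytokinesis genes 3 of 19 (-0.35). These counts stand against 11.2% of all genes tested called lower, so that the share of the anaphase promoting complex was below and that of other spindle genes near the background. No gene of these lists was called higher. CENPU, a subunit of the inner kinetochore, fell by 1.82 on the log2 scale, from a mean of 32.0 to 8.74 eRPKM, and MELK, a mitotic kinase, fell by 1.53, from 39.5 to 13.3 eRPKM. Both, with MIS12 (-0.52) of the outer kinetochore, were already called lower at 24 h (-0.79 for CENPU and -0.66 for MELK). MYBL2, which encodes B-MYB, was called lower at 48 h (-0.57).

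Genes for origin licensing and firing, which act in G1 and S phase, stood beside the mitotic list as a group with 1 CHR among its matched windows. At 48 h of RAD21 silencing 16 of 25 were called lower (median -0.66). With OHT in siRAD21 cells 15 of 25 were called higher (median 0.64), against 5 of the 50 mitotic genes (median 0.25), and 9 of 22 other kinetochore genes (0.47). Of all genes tested 12.4% were called higher there, so that the mitotic count was near the background. In siRAD21 OHT compared with siCtrl cells the median was -0.03 for origin genes, with 1 called lower, and -0.19 for the mitotic genes, with 8 called lower (16% of the list), near the 14.9% of all genes tested. Within mitotic entry control, the 4 genes called higher with OHT in siRAD21 cells were CDC25A (1.16), PKMYT1 (0.82), TRIP13 (0.68) and CDCA5 (0.66), the last of which encodes the cohesin protector sororin. The difference between the lists was not tested.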

How the data were processed

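RNA-seq of 18 libraries was used. The authors depleted ribosomal RNA, made unstranded 50-base libraries, aligned reads to hg19 with TopHat2, removed reads of equal position and strand, and deposited eRPKM (exonic RPKM) for 23399 genes, which are normalized values and not counts. TopHat2, featureCounts and SAMtools are credited to the study's methods and the submitters' processing notes. Low values were whole multiples of 1 read for 22026 genes (tolerance 0.02), which gave the depths of 9647502 to 12678599 reads that set the precision.

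Values were tested as log2(eRPKM + 0.5) for the 14993 genes with a mean of at least 1 eRPKM, with limma 3.58.1 (R 4.3.3) on 8 group means over all 18 libraries, a variance trend and Benjamini-Hochberg adjustment per comparison. Fold changes on this scale understate those of low genes. A gene was called at an adjusted p below 0.05 and an absolute log2 fold change above 0.5, the thresholds of the study. All 50 genes passed the filter. Tables were made with Python 3.11.15, and the fit was tested on simulated data. p-values measure the spread between libraries, which may be technical.

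The genes and lists were chosen with earlier results of these data known. Library values are given for the 3 called genes with the largest change in each direction per comparison whose libraries do not overlap, for PTTG1, ESPL1, SGOL1, SGOL2, CDK1, CCNB1 and FOXM1, and for the called gene with the largest change in each role. Values for other genes were chosen after they were seen. Replicate numbers were checked as pairs. Between siCtrl and siCtrl OHT at 48 h same-numbered libraries deviated together (correlations 0.258, 0.130 and 0.157). In the other comparisons the correlations ran from -0.169 (siRAD21 OHT against siCtrl, 24 h) to 0.146 (siRAD21 against siCtrl, 48 h), so that pairing did not hold throughout. Alternatives were other pseudocounts, filters, normalizations, thresholds, tests, the replicate block and leaving out each library.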

Additional observations from a re-analysis of the deposited data

Results flagged for a closer look

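The effect of OHT at 48 h differed between siRAD21 and siCtrl cells, by the interaction test, for CENPM (0.66 on the log2 scale) and PLK4 (0.50), both more positive in siRAD21 cells. PLK4 dropped below the threshold without siCtrl 48 h replicate 2 (0.45), siCtrl OHT 48 h replicate 1 (0.46) or 2 (0.48), or siRAD21 48 h replicate 2 (0.48), with a pseudocount of 1 (0.49) and, at 0.499, with each library centred on its median. The effect of siRAD21 differed between 48 and 24 h, by the test of the difference, for 14 genes, all with the lower value at 48 h. These were CENPE (-0.86), TTK (-0.85), CENPM (-0.81), CENPI (-0.79), SPC24 (-0.77), PLK4 (-0.75), SPC25 (-0.68), MAD2L1 (-0.63), KIF11 (-0.59), INCENP (-0.59), BUB1B (-0.58), AURKB (-0.57), CENPK (-0.56) and KIF20B (-0.53). Of these, AURKB lost its call without siCtrl 24 h replicate 2 (-0.44), CENPK without siCtrl 24 h replicate 1 (-0.48), and KIF20B without siCtrl 24 h replicate 1 (-0.49), siCtrl 48 h replicate 2 (-0.48) or siRAD21 24 h replicate 2 (-0.49).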

How the results depend on the processing

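No called value changed sign under any alternative run. With no fold threshold the counts of the 50 genes called were, at 24 h, 6 for siRAD21 against siCtrl, 6 for OHT in siCtrl, 4 for OHT in siRAD21, 2 for siRAD21 OHT against siCtrl OHT and 12 against siCtrl. At 48 h they were 49, 15, 40, 39 and 35 in the same order, with 28 for the interaction, 40 for the change of the siRAD21 effect and 18 for time in siCtrl cells. Of the 14993 genes tested, 3870, 3975, 5276, 3000 and 5154 passed at 24 h in that order. At 48 h 8650, 7991, 9061, 6777 and 8944 passed, with 2587 for the interaction, 3236 for the change and 6774 for time. In the 24 h comparisons, for OHT in siCtrl cells at 48 h and for time, the share of the list was below that of all genes. With a fold threshold of 1 they were 1 for siRAD21 against siCtrl at 48 h, 1 for siRAD21 OHT against siCtrl at 48 h, and 0 for OHT in siRAD21, siRAD21 OHT against siCtrl OHT, the interaction, the change of the siRAD21 effect and time. Of all genes tested 968, 1364, 1105, 565, 200, 347 and 308 passed, in the order given. For siRAD21 against siCtrl at 48 h, quantile normalization gave 19 and undoing duplicate removal 28, against 3574 and 3796 called among all genes tested. Quantile normalization gave 2 for OHT in siRAD21, 3 for siRAD21 OHT against siCtrl OHT at 48 h and 1 for time. Among all genes tested it called 3918, 2274 and 1787. Centring each library on its median gave 1 for the interaction and 1 for time, a pseudocount of 1 gave 1 for the interaction, and replicates 1 and 2 alone, chosen after seeing the data, gave 4 for it. Among all genes tested 1090, 1797, 1014 and 1141 were called, in that order. The cause was not tested.

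Leaving out 1 library at a time gave 20 to 24 genes for siRAD21 against siCtrl at 48 h, 5 to 6 for OHT in siRAD21, 4 to 6 for siRAD21 OHT against siCtrl OHT, 7 to 8 against siCtrl, 1 to 3 for the interaction, 13 to 17 for the change of the siRAD21 effect, 2 to 3 for time and 0 for the rest. In the main fit 23.7%, 28.6%, 16.2%, 28%, 7.3%, 10.7% and 12.4% of all genes tested were called either way, in that order. For the rest it was 0% to 17.9%. The counts for siRAD21 against siCtrl at 48 h and for the change of the siRAD21 effect were above these shares. The other counts were not. The interaction gave 1 without siCtrl replicate 2 or siCtrl OHT replicate 1 at 48 h, against 988 and 974 called among all genes tested. The median of the list changed sign for OHT in siRAD21 at 24 h with quantile normalization (-0.08), for siRAD21 OHT against siCtrl OHT at 24 h without siRAD21 OHT replicate 1 (0.01), and for time with centring (0.05). Quantile normalization moved the median for OHT in siRAD21 at 48 h to 0.09.

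With the replicate block, 23 genes were called for siRAD21 against siCtrl at 48 h, 5 for OHT in siRAD21, 4 for siRAD21 OHT against siCtrl OHT, 8 against siCtrl, 2 for the interaction, 14 for the change of the siRAD21 effect, 3 for time and 0 for the rest. The counts for siRAD21 against siCtrl at 48 h and for the change of the siRAD21 effect exceeded the shares of all genes in the main fit. The other counts did not, and shares with the block itself are not given here. CDK1 (-0.47, siRAD21 against siCtrl) and SPC25 (-0.49, siRAD21 OHT against siCtrl OHT) dropped below the threshold with the block. A crossed pairing at 24 h, chosen after seeing the data, called 0 genes.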
